A study of Mus musculus with 8 samples.

Results

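The genes described here encode the mevalonate arm of cholesterol synthesis, the chain of enzymes that turns acetyl-CoA into squalene. They are 9 named members, Acat2, Hmgcs1, Mvk, Pmvk, Mvd, Idi1, Fdps, Ggps1 and Fdft1, among 24545 rows of a table of liver RNA sequencing values. Each member was found by its gene name, and where a name occurred more than once the row with the highest sum over the libraries was taken. All 9 were found, and all 9 were among the 11463 features that entered the tests. The reductase step that follows Hmgcs1 in the pathway is not among the members and was not analysed here.

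RNA was measured in whole liver of male C57Bl/6J mice in 4 groups of 2 libraries, described by the submitters as biological replicates. Each p-value below rests on a spread between mice that is shared by the groups in the fit, not on that of the compared groups alone. The groups were ApoE-Cyp7a1 transgenic (Tg) mice given LPS, untreated Tg mice, wild-type (WT) mice given LPS and untreated WT mice. LPS is lipopolysaccharide, a bacterial endotoxin, and it was injected daily at 1.5 mg/kg for 7 days. The transgene is described as liver specific and carries Cyp7a1, whose enzyme limits the rate at which bile acids are made from cholesterol. The sources used here give neither the age of the mice, nor the species of the transgene, nor the part that ApoE plays in its name. Values are in FPKM, a fragment density scaled to transcript length and to the mapped fragments of each library.

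The mevalonate arm begins when Acat2, a cytosolic thiolase, joins acetyl-CoA units and Hmgcs1, the cytosolic HMG-CoA synthase, adds a further one. After reduction to mevalonate, the kinases Mvk and Pmvk and the decarboxylase Mvd make isopentenyl diphosphate, and Idi1 isomerises it. Fdps links these units into farnesyl diphosphate, which Ggps1 lengthens for protein prenylation and Fdft1, squalene synthase, commits to sterols. In liver the sterol-sensing transcription factor SREBP2 is known to raise most of these genes when sterols in the cell are low, and it acts together with NF-Y and Sp1 at sterol regulatory elements.

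Promoter windows of 300 bases, 250 of them upstream of the transcription start, were available from RefSeq (build GRCm38.p6) for 7 of the 9 members in 8 windows, and they were searched on both strands for 3 motifs. The sterol regulatory element was searched as TCACNCCAC, the NF-Y box as CCAAT and the Sp1 box as GGGCGG. The stretches of Hmgcs1, Mvd, Acat2 and Pmvk are shown because most or all of their upstream bases lie outside annotated exons and because they range from many matches to few. That of Acat2 is 228 bases long, since the upstream bases nearest the start lie in an annotated exon of Acat2 itself, and the others are 250 bases long. They are given 5′ to 3′ on the strand of the gene, with every match in capitals. Letters that read ATTGG or CCGCCC are matches to the NF-Y and Sp1 boxes on the opposite strand.
Hmgcs1 upstream stretch: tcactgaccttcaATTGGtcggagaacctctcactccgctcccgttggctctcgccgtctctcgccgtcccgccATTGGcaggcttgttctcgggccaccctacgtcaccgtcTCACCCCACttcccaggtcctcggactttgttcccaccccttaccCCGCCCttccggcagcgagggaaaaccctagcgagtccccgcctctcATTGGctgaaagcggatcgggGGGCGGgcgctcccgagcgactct
Mvd upstream stretch: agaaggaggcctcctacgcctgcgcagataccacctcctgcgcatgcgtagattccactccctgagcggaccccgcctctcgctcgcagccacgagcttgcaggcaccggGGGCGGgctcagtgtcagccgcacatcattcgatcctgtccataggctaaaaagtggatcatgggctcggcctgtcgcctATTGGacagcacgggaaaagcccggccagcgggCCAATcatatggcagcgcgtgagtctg
Acat2 upstream stretch: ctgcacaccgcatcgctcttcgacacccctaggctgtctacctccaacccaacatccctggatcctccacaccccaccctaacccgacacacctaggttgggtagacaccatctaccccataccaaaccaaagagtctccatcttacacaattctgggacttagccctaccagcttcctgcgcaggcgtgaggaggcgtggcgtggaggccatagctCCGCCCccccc
Pmvk upstream stretch: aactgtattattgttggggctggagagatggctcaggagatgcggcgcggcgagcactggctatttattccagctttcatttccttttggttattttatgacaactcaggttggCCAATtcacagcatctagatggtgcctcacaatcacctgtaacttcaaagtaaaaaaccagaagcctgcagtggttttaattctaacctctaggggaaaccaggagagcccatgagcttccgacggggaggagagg
These stretches lie at chr13:119690101-119690350 on the plus strand for Hmgcs1, chr8:122443423-122443672 on the minus strand for Mvd, chr17:12960748-12960975 on the minus strand for Acat2 and chr3:89454291-89454540 on the plus strand for Pmvk.

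Hmgcs1 was the member with a match to the sterol regulatory element, at position -137 from the start, while 1.24% of all 32851 windows held one. Its window also held 4 NF-Y boxes and 3 Sp1 boxes, of which 1 of each lay downstream of the start and is not printed. Mvk held 5 NF-Y boxes and 2 Sp1 boxes, but its upstream window overlaps an exon of Mmab and is not printed. Windows with 4 or more NF-Y boxes made up 1.06% of all windows. Ggps1 held 3 NF-Y boxes, and Idi1 and Mvd held 2 NF-Y boxes and 1 Sp1 box each. Acat2 held 1 Sp1 box and no NF-Y box, and the windows of the Pmvk starts held 1 NF-Y box and none. At least 1 NF-Y box occurred in 37.4% and at least 1 Sp1 box in 35.7% of all windows. Matches are described as letters in these windows and were not taken as binding.

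**Figure D1:**
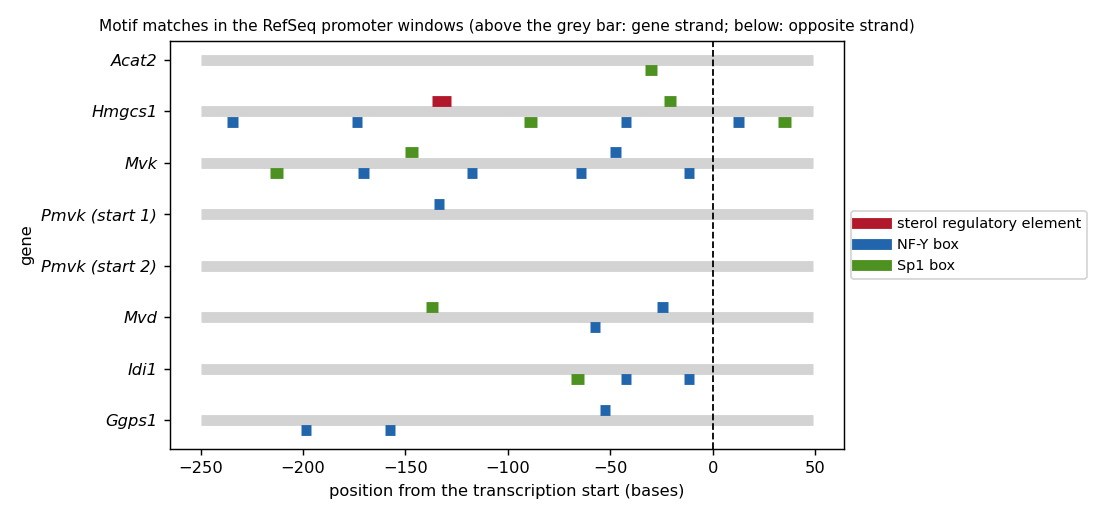
Positions of motif matches in the RefSeq promoter windows of 7 members, in bases from the transcription start, with matches on the strand of the gene above each grey bar and matches on the opposite strand below it. Hmgcs1 is the only window here with a sterol regulatory element, and Mvk has the most NF-Y boxes, with 5.

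Facts of the libraries bear on every comparison. The FPKM of all features summed to 367131 and 409006 in LPS-treated Tg liver, 439598 to 462403 in untreated Tg liver, 410891 to 415738 in LPS-treated WT liver and 477870 to 510011 in untreated WT liver. The Cyp7a1 row read 64.7 to 78.5 FPKM in the 4 Tg libraries, against 19.9 to 49.1 FPKM in the 4 WT libraries, and all Tg libraries lay above all WT libraries. The sources used here do not say whether transcripts of the transgene count in that row. All 15 hepatocyte markers had a value, and their summed level was 24310 to 26867 FPKM in LPS-treated Tg, 22465 to 26892 in untreated Tg, 26623 to 26836 in LPS-treated WT and 28588 to 34727 in untreated WT liver. The 13 macrophage markers summed to 1965 to 2081 FPKM in LPS-treated Tg liver, against 221 to 334 in untreated Tg liver, and to 2230 to 2248 FPKM in LPS-treated WT liver, against 180 to 339 in untreated WT liver. The 11 markers of pancreas summed to 25.3 and 151 FPKM in LPS-treated Tg, 1119 and 5328 in untreated Tg, 85.2 and 211 in LPS-treated WT and 86.2 and 1432 in untreated WT liver. In whole tissue, fewer cells of a type and less RNA per cell cannot be told apart.

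The enzymes that open the arm were high in untreated Tg liver and much lower in 1 of the LPS-treated Tg livers. Hmgcs1 (chromosome 13, 119690379 to 119708260) read 24.6 and 268 FPKM in LPS-treated Tg liver, 368 and 336 FPKM in untreated Tg liver, 15.5 and 16.9 FPKM in LPS-treated WT liver and 17.2 and 18.1 FPKM in untreated WT liver. The untreated Tg libraries stood far above all 4 WT libraries, which lay within a factor of 1.17 of each other. Replicate 1 of LPS-treated Tg liver was at 6.98% of the untreated Tg mean and replicate 2 at 76.1%. Acat2 (chromosome 17, 12942890 to 12960747) read 3.72 and 17.3 FPKM in LPS-treated Tg liver, 26.2 and 20.9 FPKM in untreated Tg liver, 7.73 and 8.31 FPKM in LPS-treated WT liver and 8.26 and 6.73 FPKM in untreated WT liver. Here replicate 1 of LPS-treated Tg liver was the lowest of all 8 libraries, below every WT library.

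The kinases of the arm were likewise highest in untreated Tg liver. Mvk (chromosome 5, 114444269 to 114460591), mevalonate kinase, read 4.46 and 22.9 FPKM in LPS-treated Tg liver, 33.6 and 22.6 FPKM in untreated Tg liver, 4.08 and 4.70 FPKM in LPS-treated WT liver and 3.08 and 2.55 FPKM in untreated WT liver. Replicate 1 of LPS-treated Tg liver lay within the range of LPS-treated WT liver, and replicate 2 within the range of untreated Tg liver. Pmvk (chromosome 3, 89454541 to 89469013), phosphomevalonate kinase, read 19.8 and 38.6 FPKM in LPS-treated Tg liver, 60.1 and 41.0 FPKM in untreated Tg liver, 9.33 and 9.26 FPKM in LPS-treated WT liver and 14.1 and 8.55 FPKM in untreated WT liver. All 4 Tg libraries of Pmvk lay above all 4 WT libraries.

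Mvd (chromosome 8, 122433601 to 122443422), the decarboxylase, could not be read on its own. Its row with the highest sum held the same values in all 8 libraries as the rows of Cyba and Gm20735. Cyba, which encodes a subunit of the phagocyte NADPH oxidase, lies on the same strand, 670 bases away. The shared row read 56.9 and 76.3 FPKM in LPS-treated Tg liver, 46.5 and 32.2 FPKM in untreated Tg liver, 59.0 and 60.6 FPKM in LPS-treated WT liver and 9.97 and 4.17 FPKM in untreated WT liver. Only the untreated WT libraries were low in it. A further row named Mvd, which the rule did not take, read 1.08 and 1.74 FPKM in LPS-treated Tg liver, 0.662 and 0.623 FPKM in untreated Tg liver, 1.49 and 1.61 FPKM in LPS-treated WT liver and 0.0925 and 0.0877 FPKM in untreated WT liver. Values given below for Mvd are those of the shared row.

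The isomerase and farnesyl diphosphate synthase were low in all WT libraries and far higher in untreated Tg liver. Idi1 (chromosome 13, 8885501 to 8892451) read 1.66 and 10.9 FPKM in LPS-treated Tg liver, 16.4 and 15.8 FPKM in untreated Tg liver, 0.420 and 0.566 FPKM in LPS-treated WT liver and 1.01 and 0.432 FPKM in untreated WT liver. It was close to the filter limit of 1 FPKM in WT liver, which 1 WT library reached, so it entered the tests through its 4 Tg libraries. It is no support in the counts and medians that follow, those for LPS and the interaction included. At such levels the added pseudocount of 1 makes a log2 difference smaller than the ratio of the levels. Fdps (chromosome 3, 89093588 to 89101959) read 14.3 and 60.0 FPKM in LPS-treated Tg liver, 58.5 and 40.0 FPKM in untreated Tg liver, 2.80 and 1.98 FPKM in LPS-treated WT liver and 2.75 and 2.104 FPKM in untreated WT liver. Replicate 2 of LPS-treated Tg liver was the highest of the 8 libraries, and even replicate 1 stood above all WT libraries.

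At the branch after farnesyl diphosphate the enzymes differed. Fdft1 (chromosome 14, 63145150 to 63179578), which leads to sterols, read 12.2 and 77.9 FPKM in LPS-treated Tg liver, 91.9 and 79.3 FPKM in untreated Tg liver, 12.5 and 12.7 FPKM in LPS-treated WT liver and 13.4 and 9.72 FPKM in untreated WT liver. Replicate 1 of LPS-treated Tg liver lay inside the WT range. Ggps1 (chromosome 13, 14050659 to 14063488), which leads to geranylgeranyl diphosphate, read 4.62 and 4.31 FPKM in LPS-treated Tg liver, 4.34 and 3.97 FPKM in untreated Tg liver, 4.58 and 3.32 FPKM in LPS-treated WT liver and 3.65 and 5.03 FPKM in untreated WT liver. Its 4 groups overlapped. Fdft1 overlaps Ctsb by 774 bases and Ggps1 overlaps Arid4b by 257 bases, each on the opposite strand, Fdps overlaps the gene model Gm43738 on its own strand, and the sources used here do not say how the counting treated such overlaps.

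**Figure D2:**
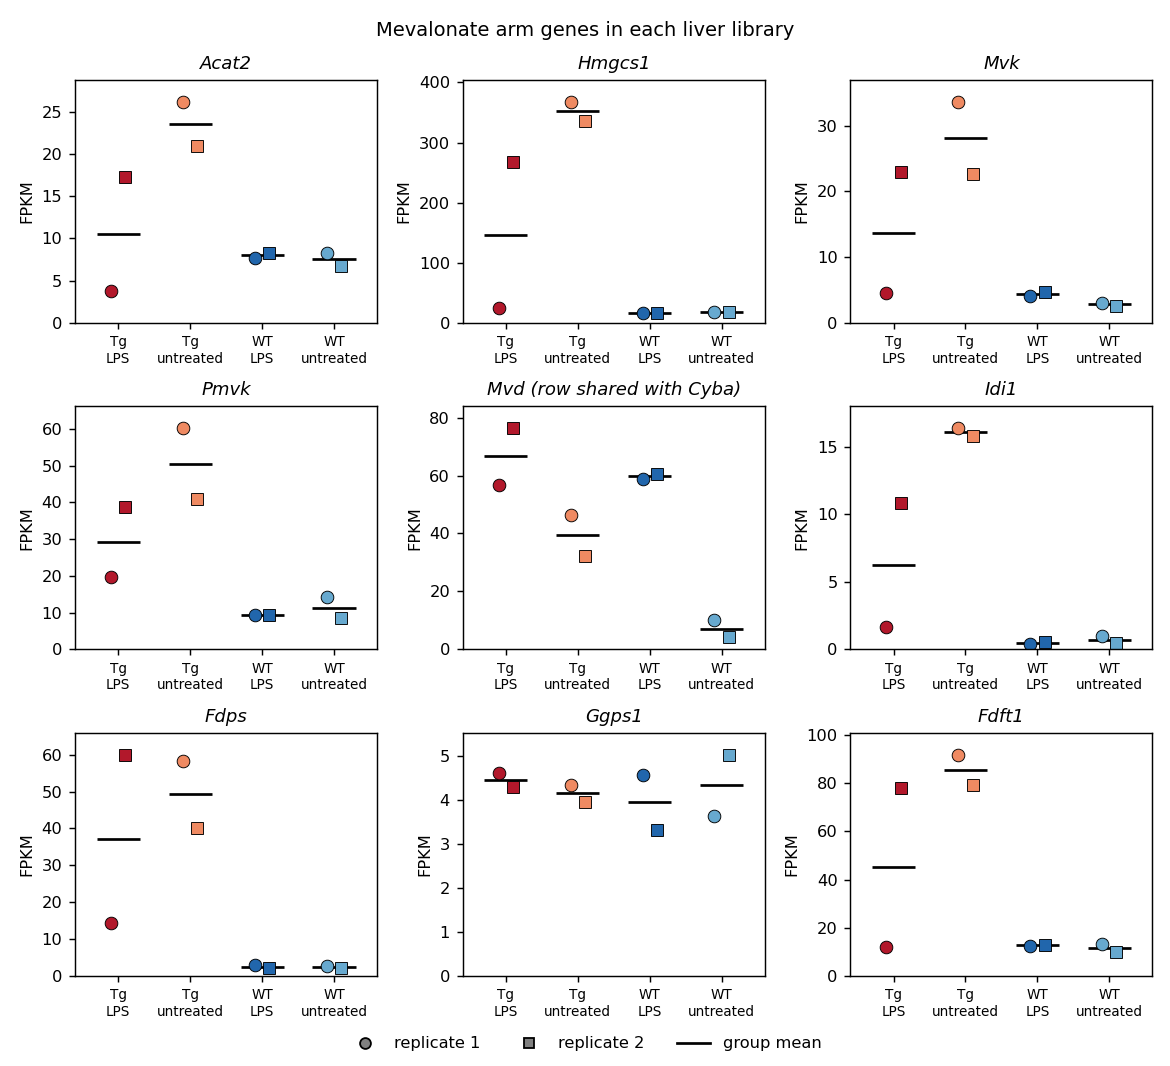
FPKM of each member in each of the 8 libraries, with circles for replicate 1, squares for replicate 2 and a bar at the group mean, and with Tg groups to the left of WT groups. In 6 genes replicate 1 of LPS-treated Tg liver lies far below replicate 2, while Ggps1 stays between 3.32 and 5.03 FPKM in all libraries.

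The order of the levels, which FPKM allows because it is scaled to length, also differed between groups. Hmgcs1 was highest in untreated Tg liver at 352 ± 22.4 FPKM (SD, n = 2), followed by Fdft1 at 85.6 ± 8.88 FPKM, and neither range touched the next gene's. Pmvk, Fdps, the shared Mvd row, Mvk and Acat2 followed at 50.6 to 23.5 FPKM with each range overlapping the next, and Idi1 and Ggps1 came last. In LPS-treated Tg liver every gene's range overlapped that of its neighbour in the order. In LPS-treated WT liver the shared Mvd row led at 59.8 ± 1.15 FPKM, ahead of Hmgcs1 at 16.2 ± 0.984 FPKM. In untreated WT liver Hmgcs1 led at 17.6 ± 0.626 FPKM, and Fdft1 and Pmvk behind it, at 11.6 and 11.3 FPKM, overlapped. Idi1 was lowest in both WT groups and Ggps1 in both Tg groups.

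The comparison of untreated Tg with untreated WT liver asked how these genes differ between the genotypes without LPS. Both Tg libraries lay above both WT libraries in 8 of the 9 members, all but Ggps1, an order that 15.4% of the tested features also had. Idi1 is among these 8 and among the members counted as passing below. It entered the tests through its Tg libraries and is no support in those counts. The untreated Tg mean was 22.3 times the untreated WT mean for Idi1, 20.3 times for Fdps, 20.0 times for Hmgcs1, 9.99 times for Mvk, 7.41 times for Fdft1, 5.56 times for the shared Mvd row, 4.46 times for Pmvk and 3.14 times for Acat2, and 0.957 times for Ggps1. Without replicate 1 of untreated WT liver the ratio was 37.2 for Idi1 and 9.42 for the shared Mvd row. Without replicate 2 it was 15.9 and 3.94, and Idi1 then fell below Hmgcs1 at 20.5 and Fdps at 17.9. The order of the ratios thus rests on low WT values. In limma on log2(FPKM + 1), with 1 spread estimated over all 8 libraries and Benjamini-Hochberg adjustment over all features at 0.05, 0 of the 9 members passed in this comparison, where 3 features (0.0262%) passed as higher and 4 (0.0349%) as lower. At an unadjusted p under 0.05 the 8 members passed, against 631 of all features.

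The log2 differences in that fit were 4.24 for Hmgcs1 (SE 0.88, adjusted p = 0.322), 3.86 for Fdps (SE 0.56, adjusted p = 0.117), 3.33 for Idi1 (SE 0.58, adjusted p = 0.203) and 2.91 for Mvk (SE 0.58, adjusted p = 0.299). They were 2.80 for Fdft1, 2.40 for the shared Mvd row, 2.08 for Pmvk and 1.53 for Acat2, with adjusted p from 0.117 to 0.761, and -0.04 for Ggps1. The median over the 9 members was 2.80, against 7.46e-05 over all tested features. Beside this, the 11 pancreas markers had a median difference of 2.78 in the same comparison. Of these markers 0 passed, and their part in the differences was not tested. The call of the members turned on the LPS-treated Tg libraries, which do not enter the difference but enter the shared spread. Hmgcs1 passed under 4 of 18 alternatives and Acat2 under 3, and each of these left out 1 or both of those libraries. No member passed under an alternative that kept both. Without replicate 1 of that group 7 members passed, all but Mvd and Ggps1, and 0.297% of features passed as higher. The Hmgcs1 difference stayed at 4.24, its SE became 0.13 and its limma adjusted p became 0.000166. The 7 members passed likewise without replicate 2 of that group and without both of its libraries, an alternative chosen after seeing the data, and 5 passed with the untreated groups fitted alone (0.157% of features). Without replicate 1 the limma adjusted p was 0.00252 for Fdft1, 0.0223 for Acat2 and 0.0459 for Pmvk.

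The comparison of Tg with WT liver under LPS asked whether the genotypes also differed in the treated mice. Both Tg libraries lay above both WT libraries in 4 members, Hmgcs1, Pmvk, Idi1 and Fdps, and 22.0% of all features had that order. Idi1 is again no support in this count. The log2 differences were 3.18 for Fdps (SE 0.56, limma adjusted p = 0.228), 2.27 for Hmgcs1 (SE 0.88, limma adjusted p = 0.379), 1.91 for Idi1 (SE 0.58, limma adjusted p = 0.334) and 1.48 for Pmvk (SE 0.35, limma adjusted p = 0.287). None of the 9 members passed in limma, 4 had an unadjusted p under 0.05, and 0% of all features passed in either direction, with 1402 at an unadjusted p under 0.05. The median of the members was 1.24, against -0.04 over all features. Without replicate 1 of LPS-treated Tg liver 4 members passed, Hmgcs1 at 3.97, Idi1 at 2.99, Fdps at 4.18 and Fdft1 at 2.53, where 0.174% of features did. Without replicate 2 instead, Fdps alone passed, where 1.38% of features did.

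Averaged over both treatments, Fdps rose in Tg liver by 3.52 on the log2 scale (SE 0.39, limma adjusted p = 0.0426) and was the 1 member that passed, where 0.0698% of features passed as higher and 0.0698% as lower. All 4 Tg libraries lay above all 4 WT libraries in Hmgcs1, Pmvk, Idi1 and Fdps, an order that 0.829% of features had. Of these, Idi1 is no support, since it entered the tests through its Tg libraries. The average differences of the others that had an unadjusted p under 0.05 were 3.26 for Hmgcs1, 2.62 for Idi1, 2.02 for Fdft1, 2.00 for Mvk, 1.78 for Pmvk and 1.27 for the shared Mvd row, with limma adjusted p from 0.0667 to 0.405. Acat2 differed by 0.79 (limma adjusted p = 0.784) and Ggps1 by 0.06. Without replicate 1 of LPS-treated Tg liver, which leaves 1 library there, the average difference was 4.11 for Hmgcs1 and 4.02 for Fdps. Without replicate 2 of that group it was 2.41 and 3.02. Without any 1 of the other 6 libraries none passed.

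**Figure D3:**
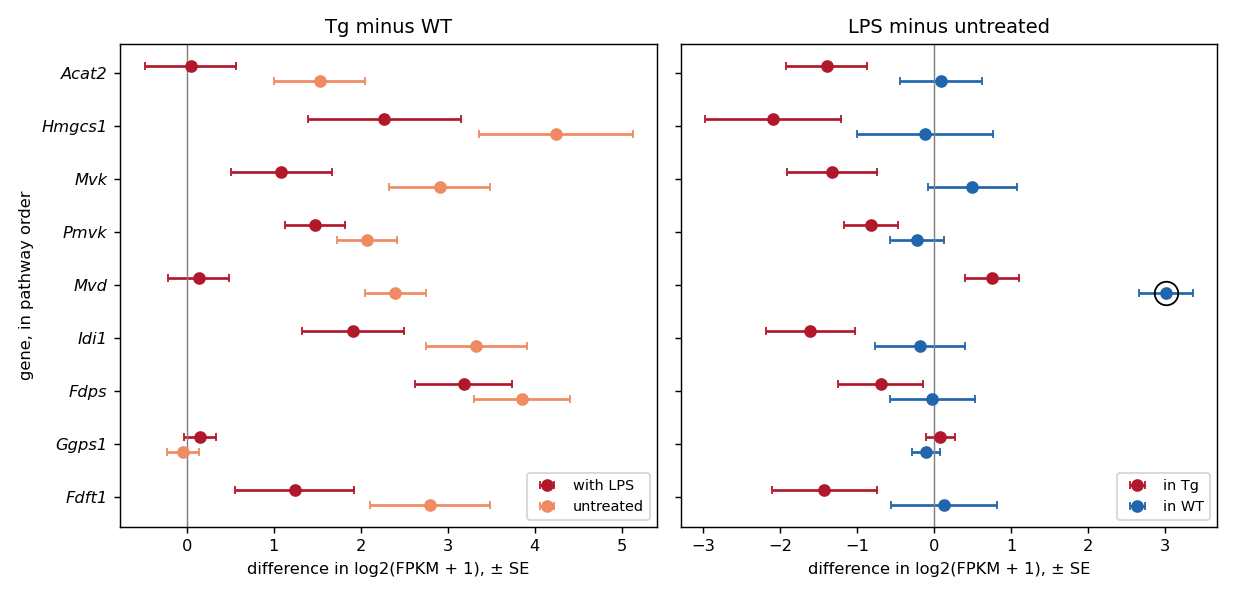
Differences in log2(FPKM + 1) with SE from the fit to all 8 libraries, Tg minus WT on the left and LPS minus untreated on the right, for the 9 members in pathway order. The circled point is the shared Mvd row under LPS in WT liver at 3.01, the 1 value in this plot that passed, and the LPS differences of 6 members in Tg liver lie between -2.09 and -0.82.

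In the comparison of LPS-treated with untreated Tg liver the LPS replicates stood far apart. On the log2(FPKM + 1) scale replicate 1 minus replicate 2 was -3.39 for Hmgcs1, -2.59 for Fdft1, -2.16 for Idi1, -2.13 for Mvk, -2.00 for Fdps and -1.96 for Acat2. Replicate 1 was thus at least 2-fold below replicate 2 in 6 of the 9 members, and 2.04% of all features showed this. The other 3 members differed by -0.93 in Pmvk, -0.42 in the shared Mvd row and 0.08 in Ggps1. In the other groups only the shared Mvd row in untreated WT liver, at 1.08, passed 2-fold, as 1.88% of features did there. Over all features the SD of the replicate difference was 0.467 in LPS-treated Tg, 0.314 in untreated Tg, 0.233 in LPS-treated WT and 0.484 in untreated WT liver. Beside this, the summed hepatocyte markers were 26867 FPKM in replicate 1 and 24310 FPKM in replicate 2, or 18843 and 19238 FPKM without Apoa1, and 7 of the 15 were lower in replicate 1. The summed macrophage markers were 2081 FPKM in replicate 1 and 1965 FPKM in replicate 2, with 6 of the 13 lower in replicate 1. All 9 neutrophil, all 7 B and plasma cell and all 11 pancreas markers with a value were higher in replicate 1, and its FPKM sum was the lower. All 6 red blood cell precursor markers and 6 of the 8 T and NK cell markers with a value were lower in replicate 1. Their part in the result was not tested.

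Both LPS libraries of Tg liver lay below both untreated ones in Acat2, Hmgcs1, Pmvk, Idi1 and Fdft1, 5 of the 9 members, an order that 36.2% of all features had, and above them in the shared Mvd row, an order of 31.8%. The log2 differences were -2.09 for Hmgcs1 (SE 0.88, limma adjusted p = 0.121), -1.60 for Idi1 (SE 0.58, limma adjusted p = 0.0801), -1.42 for Fdft1 (SE 0.69, limma adjusted p = 0.166), -1.39 for Acat2 (SE 0.53, limma adjusted p = 0.0909) and -1.32 for Mvk (SE 0.58, limma adjusted p = 0.134). No member passed in limma, where 16.0% of features passed as higher and 10.5% as lower. At an unadjusted p under 0.05, 4 of the 9 members passed, against 4534 of the 11463 features. The median of the members was -1.32, against -0.04 over all features. Without replicate 2 of LPS-treated Tg liver the Hmgcs1 difference was -3.78, and without replicate 1 it was -0.39. Each of these values rests on 1 library of that group. Beside this, all 11 pancreas markers passed as lower with LPS in Tg liver and all 9 neutrophil markers tested as higher, and their part in these differences was not tested.

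In WT liver LPS moved 1 of the 9 members past the test. The shared Mvd row rose by 3.01 on the log2 scale (SE 0.35, limma adjusted p = 0.000788), where 16.2% of all features passed as higher and 5.41% as lower, or 12.7% and 8.67% with quantile normalization. The row passed under all 18 alternatives, at 2.47 to 3.55. The row also holds Cyba, and 12 of the 13 macrophage markers passed as higher in the same comparison, all but Clec4f, with a list median of 2.97. So did all 9 neutrophil markers tested (median 3.10), whose summed level was 232 to 385 FPKM in LPS-treated WT liver, against 9.67 to 10.7 FPKM in untreated WT liver. The 7 B and plasma cell markers (median 2.16), 7 of 9 stellate cell and fibroblast markers (median 1.23) and 6 of 7 endothelial markers (median 1.31) passed as higher too. Both of the T and NK cell markers tested and 3 of 4 red blood cell precursor markers also passed as higher, and none of the cholangiocyte or pancreas markers passed. Their part in the rise of the row was not tested. The other 8 members differed by -0.22 for Pmvk to 0.50 for Mvk, and none of these passed. Both LPS libraries lay above both untreated ones in Mvk and the shared Mvd row, an order of 30.5% of features, and below them in Hmgcs1, an order of 34.0%. The median of the members was -0.02, against -0.05 over all features.

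The difference between the LPS changes in Tg and WT liver was tested as an interaction. It was -2.26 for the shared Mvd row (limma adjusted p = 0.327) and -1.97 for Hmgcs1. Of the 9 members 0 passed, where 0% of features passed as higher and 0.00872% as lower. At an unadjusted p under 0.05, 1 of the 9 members passed, against 1189 of the 11463 features. Without replicate 2 of LPS-treated Tg liver 5 members passed as lower, Acat2, Hmgcs1, Mvk, Idi1 and Fdft1, where 1.37% of features did. Averaged over genotypes, LPS raised the shared Mvd row by 1.88 (SE 0.25, limma adjusted p = 0.000848), where 20.6% of features passed as higher and 15.8% as lower, and no other member passed. That is 2364 features higher and 1813 lower, against 1989 and 2453 with quantile normalization and 2655 and 1246 with median-ratio scaling. Without replicate 2 of LPS-treated Tg liver the LPS average was -1.95 for Hmgcs1 and -1.29 for Fdft1. Without replicate 1 it was -0.25 and 0.0016.

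The enzymes after squalene close the sterol rings and finish cholesterol. Of 11 such genes tested, 4 rose in Tg liver on average over treatments in limma, where 0.0698% of all features did, and the median difference was 2.06. Sqle, squalene epoxidase, rose by 3.93 (limma adjusted p = 0.0426) and read 17.2 and 103 FPKM in LPS-treated Tg liver, 126 and 102 FPKM in untreated Tg liver, 4.37 and 4.07 FPKM in LPS-treated WT liver and 3.47 and 2.78 FPKM in untreated WT liver. As in Hmgcs1, replicate 1 of LPS-treated Tg liver was the low one of its pair. Cyp51, lanosterol demethylase, rose by 3.37 (limma adjusted p = 0.0435) and Lss, lanosterol synthase, by 2.62 (limma adjusted p = 0.0426). The count of 4 was 8 without replicate 1 of LPS-treated Tg liver (0.305% of features), 7 without its replicate 2 (0.637% of features), and 0 without any 1 of the other 6 libraries. In untreated mice none of the 11 passed, although 9 had an unadjusted p under 0.05, against 631 of the 11463 features. Their median difference there was 2.11. Ebp, sterol isomerase, fell with LPS by 0.45 averaged over genotypes (limma adjusted p = 0.0311), where 15.8% of features passed as lower. No gene of the list passed as lower without any 1 LPS-treated WT or untreated Tg library, or with another scaling. Without replicate 2 of LPS-treated Tg liver 10 of the 11 passed as lower in that average, where 18.6% of features did.

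Genes of the SREBP2 system, which senses sterols and takes up cholesterol, were tested for 9 of 10 names. None passed for the transgene in untreated mice, with 4 at an unadjusted p under 0.05, against 631 of the 11463 features. With either library of LPS-treated Tg liver left out, 2 passed (0.297% of features). Insig2 and Insig1, which hold the SREBP complex in the endoplasmic reticulum, were the most abundant. Insig2 read 363 and 252 FPKM in LPS-treated Tg liver and 172 and 369 FPKM in untreated Tg liver. In WT liver it read 110 and 107 FPKM with LPS and 162 and 523 FPKM untreated. Insig1 read 28.4 and 126 FPKM in LPS-treated Tg liver, 154 and 129 FPKM in untreated Tg liver, 18.4 and 17.9 FPKM in LPS-treated WT liver and 23.8 and 14.8 FPKM in untreated WT liver. Its average genotype difference was 2.26 (limma adjusted p = 0.169). Srebf2 itself, which encodes SREBP2, differed by 1.00 (limma adjusted p = 0.455). Mylip, a ubiquitin ligase that marks the LDL receptor for breakdown, rose with LPS by 1.04 in Tg liver (limma adjusted p = 0.00221) and by 0.73 in WT liver (limma adjusted p = 0.00978). With LPS, 16.0% of all features passed as higher in Tg liver and 16.2% in WT liver. Mbtps2, in a row shared with Yy2, rose with LPS by 0.47 in Tg liver (limma adjusted p = 0.0467). Of these 2 calls in Tg liver 1 was left without any 1 library other than those of untreated WT liver, and none in WT liver without either LPS-treated WT library.

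None of 13 genes that use isoprenoids for prenylation, dolichol and ubiquinone passed for the transgene in limma. At an unadjusted p under 0.05 there were 0 in untreated mice and 1 with LPS, against 631 and 1402 of the 11463 features. Their summed level was 120 to 126 FPKM in LPS-treated Tg, 140.5 to 141.1 in untreated Tg, 117 to 122 in LPS-treated WT and 141.0 to 142.0 in untreated WT liver. With LPS, 10.5% of all features passed as lower in Tg liver and 5.41% in WT liver. Among the 13 genes, Pdss2, a subunit of the enzyme that makes the ubiquinone side chain, fell with LPS by 0.62 in Tg liver and by 0.51 in WT liver. Rabggtb, a subunit of Rab geranylgeranyl transferase, in a row shared with Snord45c, fell with LPS by 0.52 in WT liver. Leaving out 1 library gave 0 to 1 such call in Tg liver and 0 to 2 in WT liver. Of 3 genes that supply acetyl-CoA, Slc25a1, the mitochondrial citrate carrier, fell with LPS by 1.00 in Tg liver (limma adjusted p = 0.0348), and leaving out 1 library gave 0 to 3 such calls.

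Acat1 and Bdh1, 2 genes of mitochondrial ketone body metabolism, were lower with LPS in Tg liver. Acat1, the mitochondrial thiolase, read 36.2 and 73.5 FPKM in LPS-treated Tg liver, 169.9 and 172.6 FPKM in untreated Tg liver, 119 and 108 FPKM in LPS-treated WT liver and 178 and 212 FPKM in untreated WT liver. Its LPS libraries lay below its untreated libraries in both genotypes, and replicate 1 of LPS-treated Tg liver was the lowest. With LPS it fell by 1.71 on the log2 scale in Tg liver (limma adjusted p = 0.00603), and Bdh1, which makes hydroxybutyrate, fell by 2.65 (limma adjusted p = 0.00687). In that comparison 10.5% of features passed as lower. Bdh1 read 8.28 and 28.3 FPKM in LPS-treated Tg liver, and replicate 1 was the lower here too. Both passed as lower in the LPS average over genotypes, where 15.8% of features did. Neither passed for the transgene. At an unadjusted p under 0.05 there were 0 in untreated mice and 2 with LPS, both lower in Tg liver. Over all 11463 features 631 and 1402 had such a p. Without replicate 2 of LPS-treated Tg liver both passed as lower for the transgene with LPS, where 2.33% of features did. Of the related copies of members, Acat3 shares its values with Mrpl18 and Idi2 had no value above 0 in any library, so no result is given for either.

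**Figure D4:**
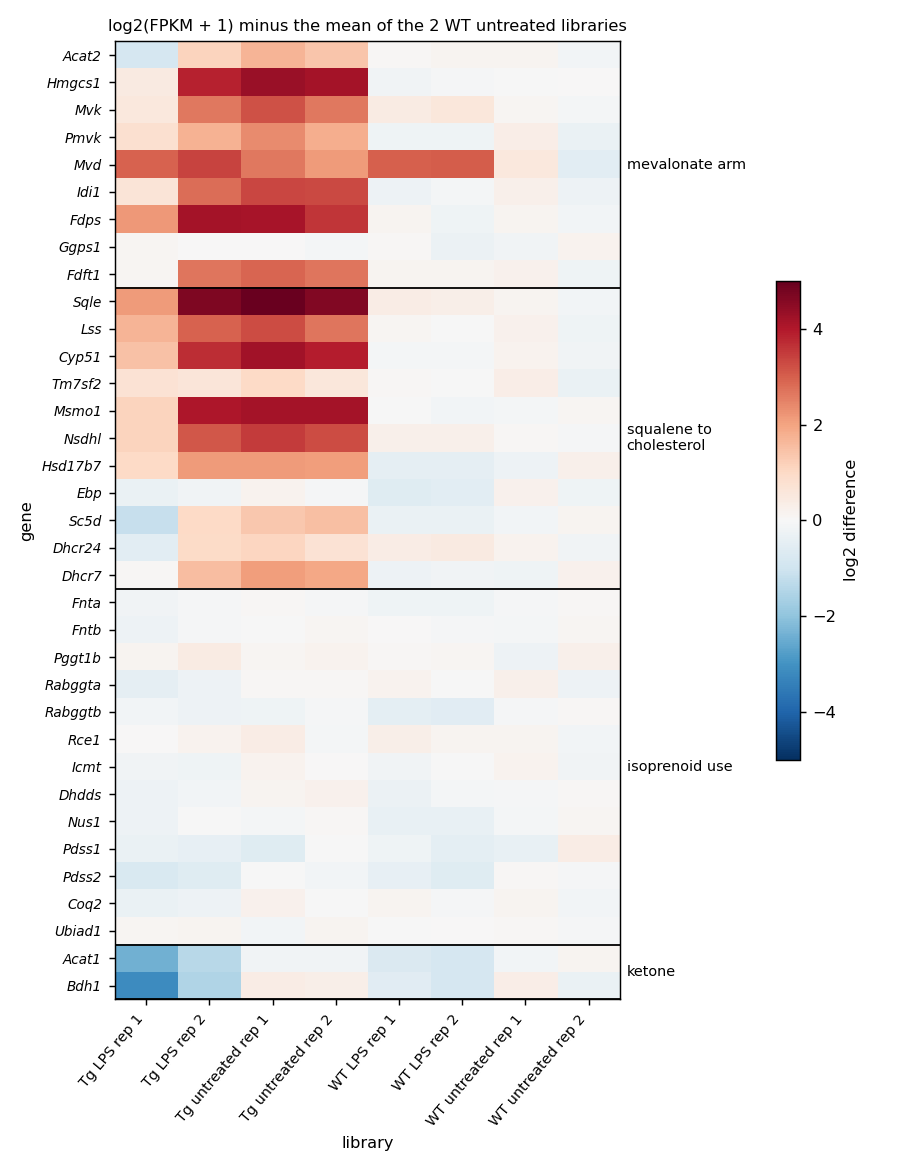
Level of each gene in each library as log2(FPKM + 1) minus the mean of the 2 untreated WT libraries, with Tg libraries to the left of WT libraries, for the mevalonate arm, the steps after squalene, isoprenoid use and the ketone genes. Both untreated Tg columns and replicate 2 of LPS-treated Tg are raised in most rows of the upper blocks, replicate 1 of LPS-treated Tg much less, and Mvd differs in being raised in LPS-treated WT as well.

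Likeness of pattern was described with Pearson r between each feature and the mean standardised log2 value of the members over the 8 libraries, with no test since the libraries share groups. Among the members r was 0.985 for Mvk, 0.981 for Hmgcs1, 0.976 for Idi1, 0.976 for Fdft1, 0.972 for Fdps, 0.959 for Pmvk and 0.844 for Acat2, and it was 0.470 for the shared Mvd row and 0.0949 for Ggps1. These members are part of the mean they were compared with. Of 10913 features outside the members, those with a high r included the row shared by Acsl3 and Utp14b at 0.996, Nsdhl at 0.993, Sqle at 0.987 and Msmo1 at 0.986. Nsdhl, a sterol dehydrogenase of the steps after squalene, read 11.1 and 46.9 FPKM in LPS-treated Tg liver, 62.0 and 52.3 FPKM in untreated Tg liver, 5.67 and 5.68 FPKM in LPS-treated WT liver and 4.77 and 4.38 FPKM in untreated WT liver. It too was low in replicate 1 of LPS-treated Tg liver beside replicate 2.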

How the data were processed

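Liver RNA of 8 mice was sequenced, and the authors deposited 1 table of FPKM values with 24545 rows and 1 column per library. Per the submitters' processing notes, TopHat2 2.1.0, Bowtie2 2.2.6, Cufflinks and Cuffdiff 2.2.1 were used with build mm10. The annotation, filters, strand setting and any scaling of the libraries were not stated in these sources. Per the labels' protocols, RNA came from frozen, pulverized liver and libraries from a stranded mRNA kit. No counts were used, low values did not share a common step (11.0% to 63.2% of ratios in 1 peak), and depth is unknown, so no counting interval is given.

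For repeated names the row with the highest sum was kept, and rows with identical values (549 sets) were joined into 1 feature. Values were transformed as log2(FPKM + 1), so fold changes of low genes are understated. Features that reached 1 FPKM in 2 or more libraries were fitted with limma 3.58.1 in R 4.3.3, with 1 mean per group over all 8 libraries. The fit had 4 residual degrees of freedom and the trended empirical Bayes option. It was first run on simulated data in which each feature had the same spread in all groups. That run does not test unequal spread between groups. There were 7 contrasts, 2-sided, with Benjamini-Hochberg adjustment over all 11463 features and calls under 0.05. Alternatives changed the pseudocount, filter, scaling, moderation, block and libraries.

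The members, lists, motifs and tests were chosen with earlier results of these data known. Named genes are the 9 members, Cyp7a1, up to 3 called genes per wider list and contrast or else the 2 most abundant, and features among the 5 most like the members. Srebf2 was added after its values were seen. Genes withheld from the lists and from the features named for likeness are not reported here. Positions are from GENCODE vM21 (GRCm38, the same assembly as mm10) and promoter windows from RefSeq.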

Additional observations from a re-analysis of the deposited data

How the results depend on the processing

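Of the changes of single members under the alternatives, 938 kept their direction and side of the threshold, 65 passed newly, 10 no longer passed, all Fdps for the transgene averaged, and 33 changed sign, all of the last in values that did not pass in the fit to all libraries. Leaving out each library in turn gave 0 to 7 members higher for the transgene in untreated mice, 0 to 4 for the transgene with LPS and 0 to 7 for the transgene averaged. It gave 0 to 1 member higher and 0 to 7 lower for LPS in Tg liver, 0 to 5 lower for the interaction and 0 to 7 lower for LPS averaged. The transgene in untreated mice gave 5 with its groups alone and 7 without both LPS-treated Tg libraries, a setting chosen after seeing the data. LPS in Tg liver gave 1 higher, Mvd, without both untreated libraries numbered 1. The transgene averaged gave 2 with quantile normalization and 0 without a filter, with robust moderation and without both untreated libraries numbered 1. With the replicate number as a block it gave 0, with Fdps at a limma adjusted p of 0.0566, and samples of the same number did not deviate together throughout (r from 0.0434 to 0.459), so the numbers were not taken as pairs.

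Sign changes were as follows. For LPS in WT liver, leaving out a library gave -0.039 to 0.22 for Acat2, -0.079 to 0.35 for Fdft1, -0.20 to 0.15 for Fdps, -0.30 to 0.080 for Ggps1, -0.43 to 0.059 for Idi1 and -0.55 to 0.11 for Pmvk. Without both untreated libraries numbered 1, Pmvk was 0.11, Idi1 0.059 and Fdps 0.11, and Fdps was 0.040 with median-ratio scaling. For LPS in Tg liver, leaving out a library gave -1.69 to 0.31 for Fdps, and quantile normalization gave -0.034 for Ggps1. For LPS averaged it gave -1.29 to 0.0016 for Fdft1, -0.86 to 0.14 for Fdps, -0.11 to 0.082 for Ggps1 and -0.95 to 0.12 for Mvk, and Ggps1 was 0.061 with median-ratio scaling. For the interaction it gave -1.67 to 0.33 for Fdps. For the transgene with LPS it gave -0.93 to 1.02 for Acat2, -0.050 to 2.53 for Fdft1, -0.031 to 0.34 for Ggps1 and -0.070 to 0.35 for Mvd. For Ggps1 it gave -0.23 to 0.15 for the transgene in untreated mice and -0.038 to 0.15 averaged, and -0.064 averaged without both untreated libraries numbered 1. Median-ratio scaling divided the libraries by 0.957 to 1.05. Causes were not tested.

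With 2 mice per group and depth unknown, a difference that did not pass is not shown to be absent. Mvd cannot be read apart from Cyba in these values, and Ggps1 was left out by the filter of 5 FPKM. A group with 1 library left was assumed to vary like the others.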
